A study of Homo sapiens with 8 samples.

Results

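The genes described here are 39 genes of protein folding in the endoplasmic reticulum (ER), of ER-associated degradation (ERAD) and of the unfolded protein response (UPR), out of 18132 genes on the array. They were chosen by name: a probe set belonged to a gene when its only gene symbol in the platform annotation was on the list. By this rule 38 of the 39 genes had a probe set, while the 2 probe sets of TXNDC5, a thioredoxin-like protein disulfide isomerase, carried several symbols and were not analysed. Of the 38, 37 were tested. The stress sensor ERN1 lay below the floor of log2 6.11 in all 3 groups and was not tested.

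Gene expression was measured on 1 Affymetrix 3′ expression array per culture of Huh7.5.1 and Hep3B, established human hepatocellular carcinoma lines. The 3 groups used were Huh7.5.1 given 10 µM CU27 for 48 h, Huh7.5.1 given DMSO, the vehicle, for the same time, and Hep3B given DMSO for the same time, each with 2 cultures labelled as biological replicates. CU27 is known here by its code name only, and each line stands for a single tumour. The columns labelled Hep3B CU27 could be computed from those of Hep3B DMSO by a linear rule at each of the 49395 probe sets. They were left out, so no effect of CU27 in Hep3B is described. The rule can also be solved for the Hep3B DMSO columns, so it does not show which pair of columns was measured. The Hep3B DMSO columns were used as labelled. Their 2 values were equal at 1086 of the 49395 probe sets, 0 of them of the listed genes.

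Within a group the 2 arrays had a Pearson r of 0.991 in CU27, 0.993 in Huh7.5.1 DMSO and 0.994 in Hep3B DMSO across probe sets, which are not independent replicates. Hepatocyte markers such as ALB, TTR and APOA1 were above the floor on all 6 arrays. The leukocyte markers PTPRC and CD3E, the endothelial marker VWF and the fibroblast marker COL3A1 were above it on 0 of 6 arrays. PECAM1 and COL1A1 each reached it on 1 array. HNF4A was not analysed here.

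Secreted and membrane proteins enter the ER through the SEC61 translocon and fold with the help of the Hsp70 BiP (HSPA5), the Hsp90 GRP94 (HSP90B1), the lectins calnexin and calreticulin, and the protein disulfide isomerases. Proteins that fail to fold are extracted by ERAD, in which the ubiquitin ligase SYVN1 and its partner SEL1L sit at the centre, and are degraded by the proteasome. An excess of unfolded proteins activates IRE1 (ERN1), PERK (EIF2AK3) and ATF6. IRE1 splices the mRNA of the transcription factor XBP1, PERK slows translation, and ATF6 is cleaved to a transcription factor. Hepatocytes secrete most plasma proteins and carry a large ER.

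The binding sites of ATF6 and XBP1 are known as ER stress elements. The genes were chosen by name and not by sequence, but the list was one of ER and UPR genes. The share of matches among them is therefore no independent result. The promoter windows were RefSeq sequences of GRCh38.p14, each 300 bases long with 250 bases before and 50 after an annotated transcription start. Of the 39 genes, 36 matched a window. The ERSE was searched as CCAAT, 9 bases and CCACG, on both strands. It occurred in windows of 8 of these 36 genes, against 0.0916% of all 27305 genes with a window. In the following sites both parts of the ERSE are in capitals, and each is written in the direction of the motif.
HSPA5, chr9:125241381-125241419, minus strand: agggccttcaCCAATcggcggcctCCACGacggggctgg
HSP90B1, chr12:103930206-103930244, plus strand: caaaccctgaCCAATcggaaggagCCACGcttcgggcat
HSP90B1, chr12:103930311-103930349, minus strand: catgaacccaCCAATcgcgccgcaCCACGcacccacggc
CRELD2, chr22:49918544-49918582, minus strand: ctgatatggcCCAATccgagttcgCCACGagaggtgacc
CALR, chr19:12938374-12938412, minus strand: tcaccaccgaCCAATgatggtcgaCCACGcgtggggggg
CANX, chr5:179698768-179698806, plus strand: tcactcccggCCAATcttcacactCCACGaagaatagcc
PDIA6, chr2:10812843-10812881, minus strand: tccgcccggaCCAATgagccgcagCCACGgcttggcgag
ERO1B, chr1:236282173-236282208, plus strand: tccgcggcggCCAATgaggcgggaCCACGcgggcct
XBP1, chr22:28800593-28800631, minus strand: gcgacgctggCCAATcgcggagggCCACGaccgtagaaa

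A second element, ERSE-II, was searched as ATTGG, 1 base and CCACG, on both strands. It was found in windows of HERPUD1, HYOU1 and SDF2L1, which is 3 of the 36 genes against 0.0696% of all genes. Both parts are in capitals in the following sites.
HERPUD1, chr16:56932015-56932045, plus strand: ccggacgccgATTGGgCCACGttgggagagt
HYOU1, chr11:119057264-119057294, plus strand: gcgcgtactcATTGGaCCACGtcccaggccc
HYOU1, chr11:119057370-119057400, plus strand: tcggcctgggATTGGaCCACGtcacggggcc
SDF2L1, chr22:21642104-21642134, minus strand: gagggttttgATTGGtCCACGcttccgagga

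The core of the UPR element, TGACGTGG on either strand, lay in windows of HYOU1, DNAJC10 and TXNDC5, again 3 of 36, against 0.927% of all genes. In HYOU1 it overlapped one of the ERSE-II matches. The shared part CCACG alone is common and was present in windows of 27 of the 36 genes and of 42.1% of all genes. A match describes letters in a window and is no measured binding, and a window without one says nothing about the factor.

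**Figure D1:**
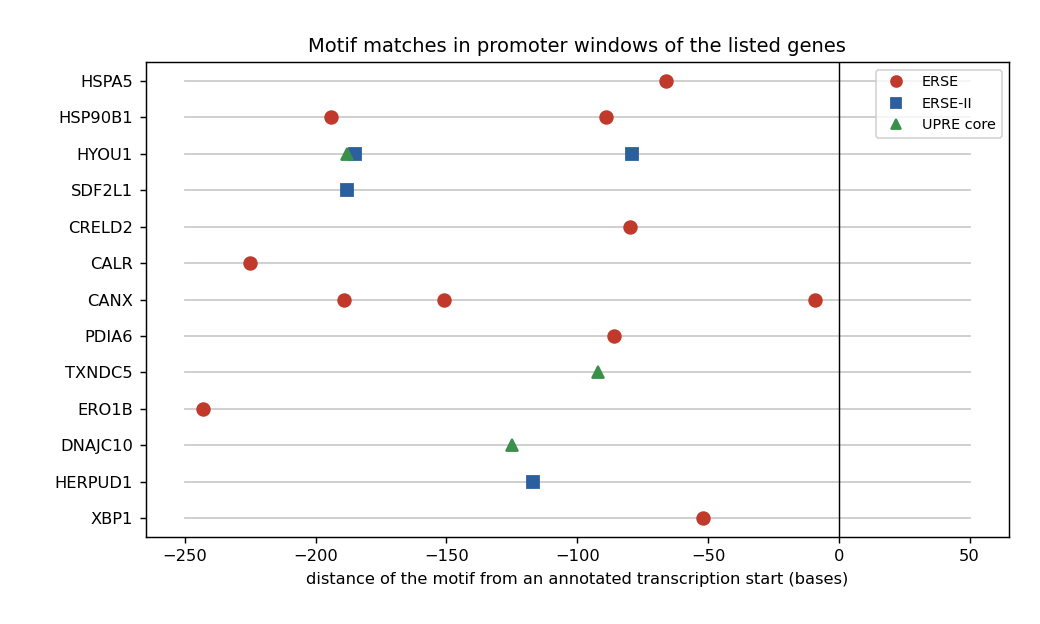
Positions of exact motif matches in the promoter windows of the listed genes that had one, as the distance in bases of the motif's first base from an annotated transcription start (grey lines, window from 250 bases before to 50 after). CANX shows 1 site at 3 places because it has several annotated starts, and HSP90B1 has 2 separate ERSE sites.

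The first comparison asked which of these genes differed between CU27 and DMSO in Huh7.5.1. With CU27, 7 of the 37 tested genes rose, EIF2AK3, DNAJB9, SYVN1, SDF2L1, CRELD2, DNAJC3 and HSPA5, and 4 fell, DNAJC10, XBP1, HSPA13 and SEC63 (limma, adjusted p under 0.05). The other 26 did not pass. The genes that rose encode BiP, the J proteins ERdj4 (DNAJB9) and p58IPK (DNAJC3), SDF2L1, CRELD2, the ERAD ligase HRD1 (SYVN1) and PERK. Those that fell encode XBP1, an Hsp70 relative and the J proteins DNAJC10 and SEC63.

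Over all 11383 genes tested, 24.7% passed, with 12.6% higher and 12.1% lower. Of the listed genes 29.7% passed, with 18.9% higher and 10.8% lower. The median difference of the listed genes was 0.17 on the log2 scale, against 0.02 over all genes, and 29 of 37 differences were positive. The CU27 and DMSO arrays did not overlap for 24 of the 37 genes, or 64.9%, which is near the 63.8% found over all genes. RNA came from whole cultures, so more cells expressing a gene and more RNA per cell cannot be told apart.

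These counts depended on single arrays, as did those over all genes. Without Huh7.5.1 DMSO replicate 2, limma called 2 of the listed genes higher and 0 lower, with 8 and 4 at an unadjusted p under 0.05. Over all genes that fit called 3.99% higher and 3.75% lower, with 13.3% and 13.0% at an unadjusted p under 0.05. Fewer listed genes also passed without Huh7.5.1 DMSO replicate 1 and without Huh7.5.1 CU27 replicate 2. The same held without Hep3B DMSO replicate 2 and without Hep3B DMSO replicate 3. These arrays enter through the shared spread, the floor and the choice of genes tested. Over all genes, too, fewer passed in each of these fits. EIF2AK3 and DNAJB9 passed in each of the 6 fits that left out an array, with adjusted p between 0.00574 and 0.0185 for EIF2AK3 and between 0.00567 and 0.0459 for DNAJB9. XBP1 passed in 5 of them and missed the threshold without Huh7.5.1 DMSO replicate 2, at an adjusted p of 0.0597.

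**Figure D2:**
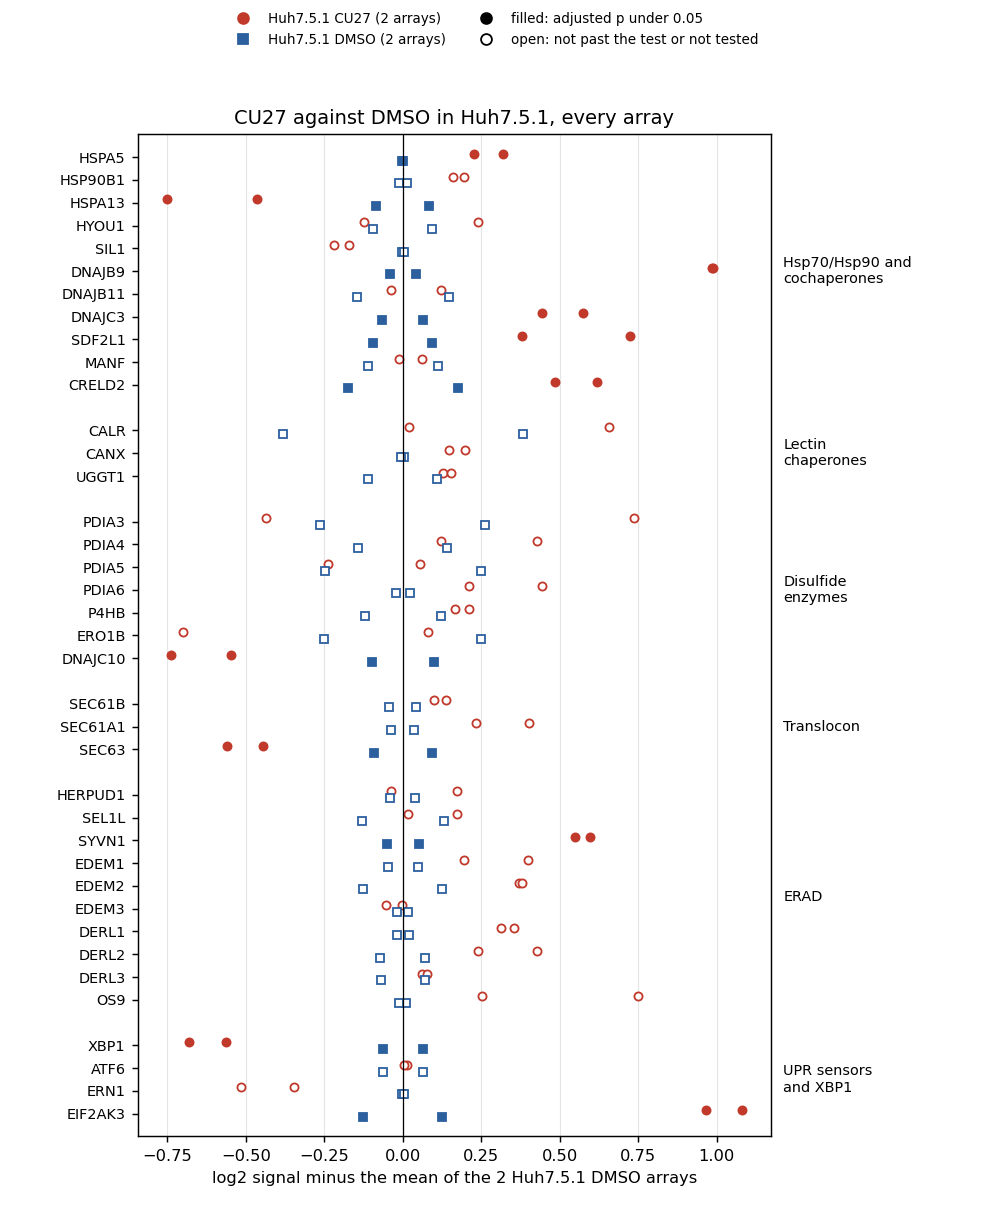
Each point is 1 array, drawn as its log2 signal minus the mean of the 2 Huh7.5.1 DMSO arrays, with genes grouped by role. Both EIF2AK3 and both DNAJB9 arrays with CU27 lie near 1 log2 unit, while XBP1, HSPA13, DNAJC10 and SEC63 lie to the left of both DMSO arrays.

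Among the sensors, the mRNA of PERK gave the largest difference of the 37 genes. EIF2AK3 had log2 signals of 9.12 and 9.23 in CU27 and 8.02 and 8.28 in DMSO. Both CU27 arrays lay above both DMSO arrays, a difference of 1.02 ± 0.15 (SE, n = 2 arrays per group), or 2.03-fold (limma, adjusted p = 0.00231). All 3 of its probe sets rose, by 0.93 to 1.14. ATF6, the sensor cleaved in the Golgi, had 7.95 and 7.94 in CU27 and 7.87 and 7.99 in DMSO, groups that overlapped (difference 0.01, limma adjusted p = 0.972). ERN1, which encodes IRE1, had 4.74 and 4.57 in CU27 and 5.09 and 5.09 in DMSO, all below the floor.

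XBP1 encodes the transcription factor downstream of IRE1. It had 11.75 and 11.87 in CU27 and 12.37 and 12.50 in DMSO. It fell by 0.62 ± 0.11 (SE) on the log2 scale, or 1.54-fold (limma, adjusted p = 0.00592), with no overlap between the groups. XBP1 was represented by a single probe set, and its spliced and unspliced forms were not told apart on this array. Its promoter window holds an ERSE, printed above.

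The Hsp70 and Hsp90 chaperones and their cochaperones, the largest role, also had the most genes that rose. Of 11 tested, 5 rose and 1 fell, against 12.6% higher and 12.1% lower over all genes. The median difference of this role was 0.18. DNAJB9 encodes ERdj4, a J protein that acts with BiP and represses IRE1. It had 11.13 and 11.13 in CU27 and 10.18 and 10.10 in DMSO. It rose by 0.99 ± 0.17 (SE), or 1.98-fold, with both CU27 arrays above both DMSO arrays (limma, adjusted p = 0.00527). Its second probe set above the floor differed by 0.97.

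SDF2L1, a partner of the ER J proteins, had 9.90 and 10.25 in CU27 and 9.62 and 9.43 in DMSO. CRELD2, a secreted ER protein with EGF-like domains, had 9.89 and 10.02 in CU27 and 9.58 and 9.23 in DMSO. Both rose by 0.55 ± 0.15 (SE), without overlap between groups, at a limma adjusted p of 0.0275 each. Each was past the threshold in few of the 6 fits that left out an array, SDF2L1 in 1 and CRELD2 in 2. Without Huh7.5.1 DMSO replicate 2 the adjusted p was 0.174 for SDF2L1 and 0.199 for CRELD2.

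DNAJC3, a J protein of the ER lumen also known as an inhibitor of PERK, had 8.54 and 8.67 in CU27 and 8.16 and 8.03 in DMSO. It rose by 0.51 ± 0.15 (SE, limma adjusted p = 0.0405). The call was kept in 1 of the 6 fits with an array left out, and the adjusted p reached 0.216 without Huh7.5.1 DMSO replicate 2.

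HSPA5 had 12.78 and 12.87 in CU27 and 12.55 and 12.55 in DMSO. BiP mRNA lay above DMSO in both CU27 cultures, by 0.27 ± 0.07 (SE), or 1.21-fold (limma, adjusted p = 0.0245). The adjusted p was 0.105 without Huh7.5.1 DMSO replicate 1, 0.130 without Huh7.5.1 DMSO replicate 2 and 0.0981 without Huh7.5.1 CU27 replicate 2. Of its 6 probe sets, 5 had positive differences of 0.13 to 0.37 and 1 differed by -0.88.

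HSPA13, an Hsp70 relative of the microsomes, had 9.83 and 9.54 in CU27 and 10.21 and 10.38 in DMSO. It fell by 0.61 ± 0.15 (SE, limma adjusted p = 0.0192) on the probe set with the highest signal. Its 4 probe sets disagreed in sign, with differences of -0.61 and -0.73 on one pair and 0.72 and 0.76 on the other, so the direction of HSPA13 rests on the probe set. The mean of its probe sets differed by 0.03.

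The other 5 genes of this role did not pass. HSP90B1 had 13.42 and 13.38 in CU27 and 13.21 and 13.23 in DMSO, a difference of 0.18 ± 0.06 (SE, limma adjusted p = 0.0622), and each of its 7 probe sets had a positive difference, of 0.18 to 0.35. HYOU1 and SIL1, the nucleotide exchange factors of BiP, differed by 0.06 and -0.19. DNAJB11, the J protein ERdj3, differed by 0.04 and the secreted factor MANF by 0.02.

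Of the 3 genes of the lectin cycle, 0 passed (limma), and 1, CANX, was higher at an unadjusted p under 0.05 (all genes: 19.1%). CANX, the membrane lectin calnexin, had 12.79 and 12.84 in CU27 and 12.65 and 12.64 in DMSO, a difference of 0.17 ± 0.07 (SE, limma adjusted p = 0.105). CALR, calreticulin, had 9.64 and 9.0 in CU27 and 9.37 and 8.60 in DMSO. Its replicates spread over more than its difference of 0.34 ± 0.28 (SE, limma adjusted p = 0.421). UGGT1, which reglucosylates misfolded glycoproteins, differed by 0.14.

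Among the disulfide isomerases and oxidases 1 of 7 tested genes fell and 0 rose (limma), with 1 higher at an unadjusted p under 0.05 (all genes: 19.1%). DNAJC10, the reductase ERdj5 that opens disulfides before ERAD, had 9.42 and 9.23 in CU27 and 9.87 and 10.07 in DMSO. It fell by 0.64 ± 0.15 (SE), or 1.56-fold, without overlap (limma, adjusted p = 0.0150), and all 5 of its probe sets above the floor had negative differences. The adjusted p was 0.122 without Huh7.5.1 DMSO replicate 2 and 0.0729 without Huh7.5.1 CU27 replicate 2.

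PDIA6, an isomerase that also binds the sensors, had 11.63 and 11.40 in CU27 and 11.17 and 11.21 in DMSO, a difference of 0.33 ± 0.11 (SE, limma adjusted p = 0.0665). P4HB, the canonical protein disulfide isomerase, and PDIA4 differed by 0.19 and 0.28, PDIA3 by 0.15 and PDIA5 by -0.09. PDIA3 had 12.12 and 10.94 in CU27 and 11.64 and 11.11 in DMSO, the widest spread between replicates among these enzymes. ERO1B, an oxidase that recharges the isomerases, had 7.52 and 6.74 in CU27 and 7.69 and 7.19 in DMSO, a difference of -0.31 ± 0.28 (SE, limma adjusted p = 0.466). Its other probe sets gave positive differences, one of them of 1.85 (limma, adjusted p = 0.0044 over all probe sets), so the 4 probe sets of ERO1B disagreed.

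In the translocon SEC63 fell, and 0 of 3 genes rose (limma), with 1 higher at an unadjusted p under 0.05 (all genes: 19.1%). SEC63 is the membrane J protein that recruits BiP to the channel. It had 11.44 and 11.33 in CU27 and 11.80 and 11.98 in DMSO. The groups did not overlap, and it fell by 0.50 ± 0.11 (SE, limma adjusted p = 0.0138). All 3 of its probe sets fell, by differences of -0.50 to -1.35. Without Huh7.5.1 DMSO replicate 2 the adjusted p was 0.124, and without Huh7.5.1 CU27 replicate 2 it was 0.0662. SEC61A1, the pore subunit, differed by 0.32 (limma, adjusted p = 0.0749) and SEC61B, a small subunit, by 0.12.

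In ERAD 1 of 10 genes rose and 0 fell (limma), with 5 higher and 0 lower at an unadjusted p under 0.05. Over all genes 19.1% were higher and 18.8% lower at that unadjusted threshold. SYVN1 encodes HRD1, the ubiquitin ligase of the ER membrane. It had 8.94 and 8.99 in CU27 and 8.44 and 8.34 in DMSO. It rose by 0.57 ± 0.14 (SE), or 1.49-fold, with both CU27 arrays above both DMSO arrays (limma, adjusted p = 0.0163). Its adjusted p was 0.0575 without Huh7.5.1 DMSO replicate 1, 0.119 without Huh7.5.1 DMSO replicate 2 and 0.0592 without Huh7.5.1 CU27 replicate 2.

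The median difference of the ERAD genes was 0.31, the highest of the 6 roles, and 9 of 10 differences were positive. OS9, a lectin that delivers glycoproteins to the SYVN1 complex, had 10.10 and 10.60 in CU27 and 9.86 and 9.84 in DMSO. It differed by 0.50 ± 0.17 (SE, limma adjusted p = 0.0576), and all 6 of its probe sets had positive differences, of 0.30 to 0.59. DERL1 and DERL2, channel proteins of retrotranslocation, each differed by 0.33, at limma adjusted p of 0.0861 and 0.111. DERL3 differed by 0.07 at signals close to the floor.

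EDEM1, EDEM2 and EDEM3 are related to mannosidases that mark glycoproteins for ERAD, and they differed by 0.30, 0.37 and -0.03. For EDEM1, 2 of the 4 probe sets above the floor passed when each probe set was tested on its own, at 0.72 and 1.01. SEL1L, the adaptor of SYVN1, differed by 0.10. HERPUD1, a ubiquitin-like membrane protein of the same complex and a known UPR target, had 10.30 and 10.51 in CU27 and 10.30 and 10.38 in DMSO, a difference of 0.07 ± 0.13 (SE, limma adjusted p = 0.751).

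**Figure D3:**
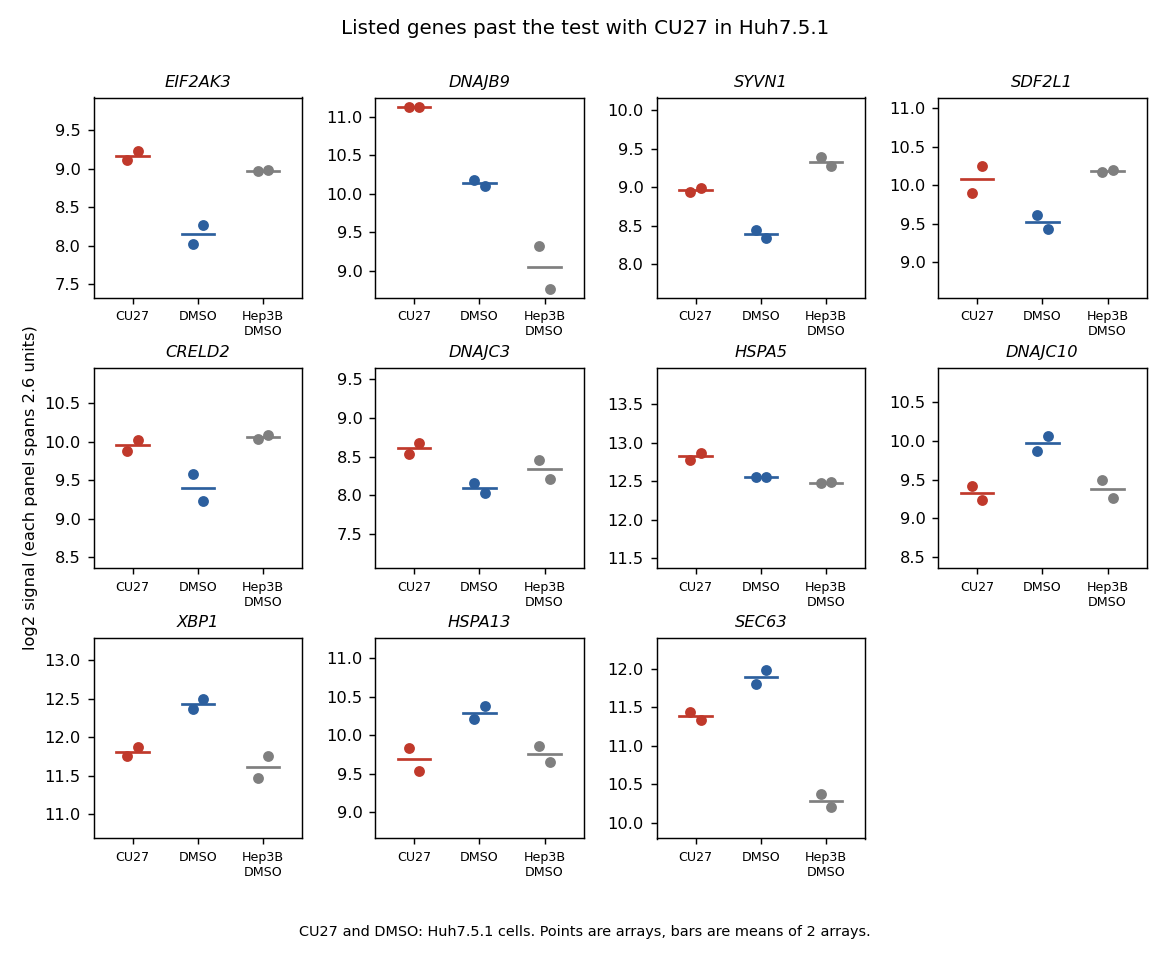
Log2 signal of each array (points) and group mean (bars, 2 arrays) for the 11 listed genes past the threshold under CU27, in Huh7.5.1 with CU27, Huh7.5.1 with DMSO and Hep3B with DMSO. Each panel spans the same range of the log2 scale, so the 2.03-fold rise of EIF2AK3 and the 1.21-fold rise of HSPA5 can be read against each other.

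Genes with an ERSE were found among those that rose, those that fell and those that did not pass. Of the 8 genes with an ERSE, HSPA5 and CRELD2 rose, XBP1 fell and 5 did not pass. Of the 26 tested genes with a window and no ERSE, 5 rose, 3 fell and 18 did not pass. EIF2AK3 and DNAJB9, which had the largest differences, were among those without an exact match in the window.

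The choice of probe set ended more calls. With the mean of all probe sets standing for a gene, the CU27 difference was 0.07 for HSPA5, 0.29 for DNAJC3, 0.25 for CRELD2, 0.32 for SYVN1 and -0.41 for DNAJC10. None of these 5 passed there (limma, adjusted p between 0.0991 for SYVN1 and 0.715 for HSPA5). These means include probe sets below the floor for 3 genes. SYVN1 and CRELD2 each had 1 of 2 probe sets that reached it, and DNAJC10 had 5 of 7. All 3 of DNAJC3 and all 6 of HSPA5 reached it. The lowest of HSPA5 lay near the floor, at 6.35 and 5.88 in CU27 and 6.96 and 7.03 in DMSO. Without the probe sets ending in _x_at or _s_at, HSPA5 (0.29), HSPA13 (-0.73) and DNAJC10 (-0.27) did not pass. DNAJB9 had only such probe sets, so it could not be tested there.

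Most genes had several probe sets, 130 in all for the 38 genes, of which 111 reached the floor. Among the 26 genes with more than 1 probe set above the floor, 9 had CU27 differences of both signs. Probe sets of HSPA5 and HSPA13 passed in both directions when tested singly. The median spread across all probe sets of these 26 genes, those below the floor included, was 0.32 for the CU27 difference and 1.06 for the difference between lines.

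The ratio of 3′ to 5′ signal of ACTB, a control for RNA length, also differed between lines. As a log2 difference of 3′ minus 5′ signal it was 0.98 and 1.21 with CU27 and 0.94 and 1.06 without it in Huh7.5.1, against 2.28 and 1.60 for Hep3B. For GAPDH it was 0.05 and 0.14 with CU27 and 0.07 and 0.09 without it in Huh7.5.1, against 0.43 and 0.32 for Hep3B. The part of this difference in the results between lines was not tested.

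**Figure D4:**
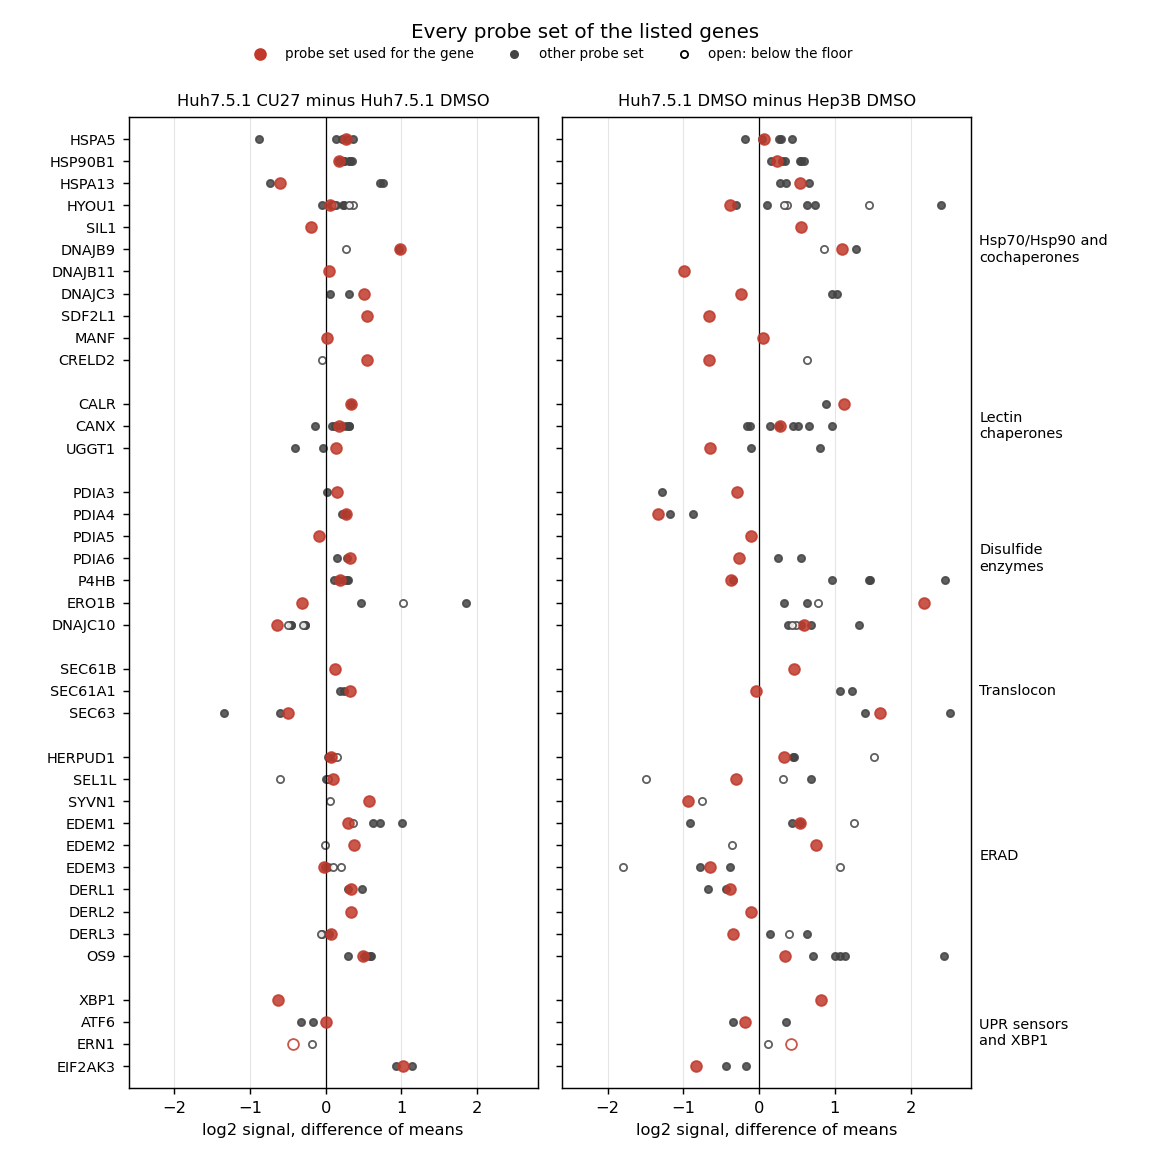
Difference of group means on the log2 scale for every probe set of the listed genes, with CU27 minus DMSO in Huh7.5.1 at the left and Huh7.5.1 minus Hep3B in DMSO at the right. The large points are the probe sets used for the genes, and open points stayed below the floor in all groups. Probe sets of P4HB, HYOU1 and OS9 spread over more than 2 log2 units between lines.

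The second comparison set Huh7.5.1 against Hep3B, both in DMSO. It shares the Huh7.5.1 DMSO arrays with the first, so the comparisons are not independent. On the values as deposited the median difference over all tested genes was 0.22, against 0.02 after each array was centred on its median and -0.10 after quantile normalization. A direction is given only where all 3 scalings called a gene in the same direction.

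By this rule 7 of the 37 genes, or 18.9%, were higher in Huh7.5.1, and 10, or 27.0%, were lower. Over all genes 27.0% were higher and 22.9% lower. The higher genes were ERO1B, SEC63, CALR, DNAJB9, XBP1, EDEM2 and SEC61B, and the lower ones PDIA4, DNAJB11, SYVN1, EIF2AK3, CRELD2, SDF2L1, EDEM3, UGGT1, DERL1 and P4HB.

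On the deposited scale alone 24 of the 37 genes passed (64.9%, against 64.0% of all genes), with 14 higher (all genes: 41.0%) and 10 lower (all genes: 22.9%). The split turned with the scaling, to 8 higher and 16 lower after centring and to 7 and 16 after quantile normalization. Over all genes it was 4671 higher and 2612 lower as deposited, 3591 and 3501 centred, and 3118 and 4006 quantile normalized. The lines did not overlap for 32 genes (86.5%), near the 84.8% of all genes. The median of the listed genes was -0.10 as deposited, -0.31 centred and -0.32 quantile normalized.

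**Figure D5:**
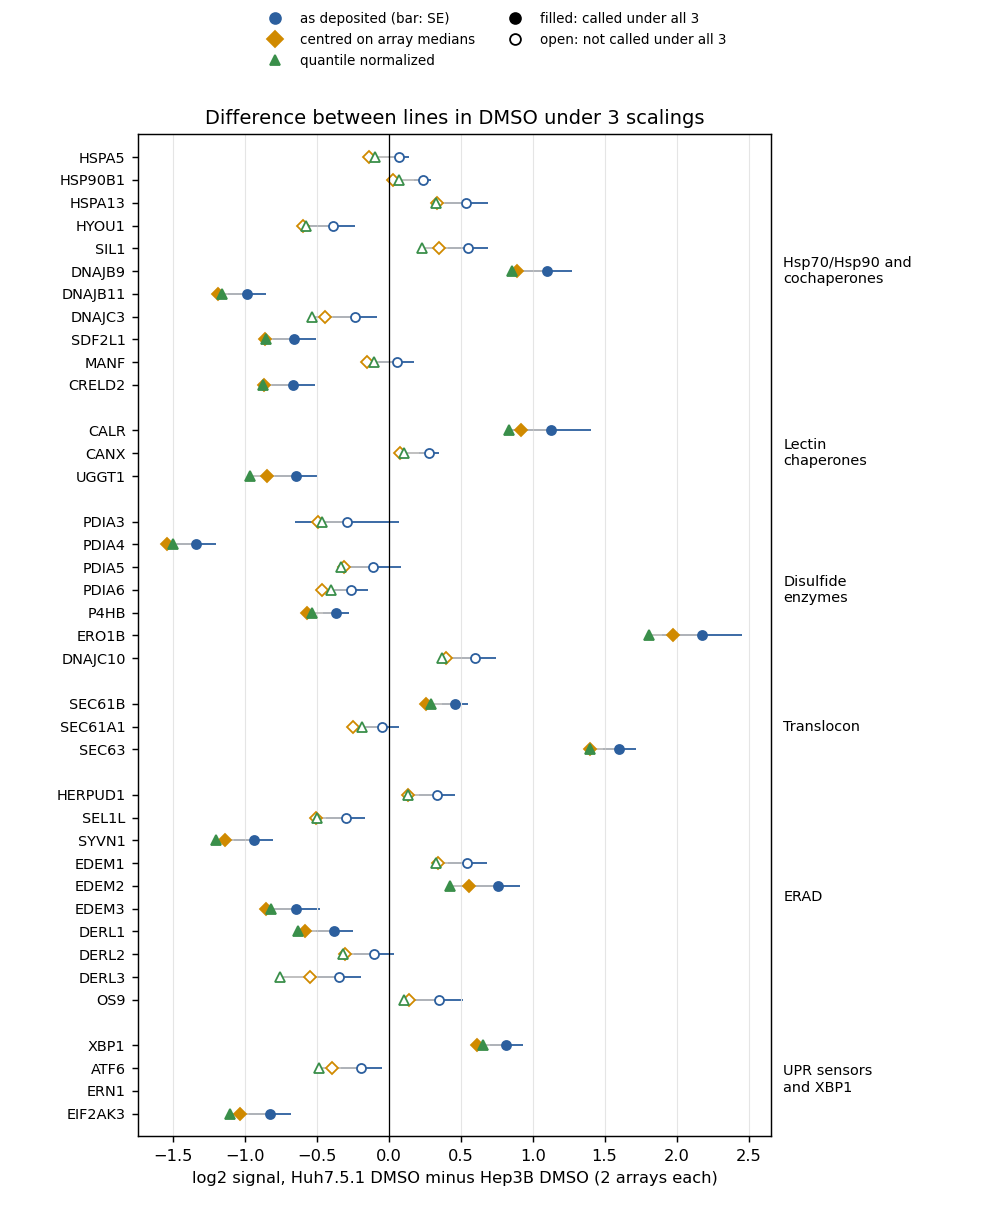
Difference between Huh7.5.1 and Hep3B in DMSO for each tested gene on the log2 scale, as deposited (circles, bars are the SE), centred on the array medians (diamonds) and quantile normalized (triangles). Filled symbols mark the 7 higher and 10 lower genes called under all 3 scalings. ERN1 was not tested.

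Of the genes higher in Huh7.5.1, ERO1B had 7.69 and 7.19 in Huh7.5.1 and 5.44 and 5.08 in Hep3B. The Hep3B values lay below the floor, so on the deposited scale this probe set was at least 2.51-fold higher in Huh7.5.1 (limma, adjusted p = 0.000153). Its difference was 2.18 as deposited and 1.97 after centring. The other ERO1B probe sets that reached the floor differed by 0.63 and 0.33 as deposited. The smaller of these did not pass when each probe set was tested on its own (limma, adjusted p = 0.339). SEC63 had 11.80 and 11.98 in Huh7.5.1 and 10.37 and 10.21 in Hep3B, and all 3 of its probe sets were higher. Its difference was 1.60 ± 0.11 (SE) as deposited and 1.40 after centring (limma, adjusted p = 4.94e-06 as deposited).

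CALR had 9.37 and 8.60 in Huh7.5.1 and 7.73 and 7.99 in Hep3B, a difference of 1.12 ± 0.28 (SE) as deposited and 0.92 after centring (limma, adjusted p = 0.00651 as deposited). DNAJB9 had 10.18 and 10.10 in Huh7.5.1 and 9.32 and 8.77 in Hep3B, a difference of 1.10 ± 0.17 (SE) as deposited and 0.89 after centring. In both genes the Huh7.5.1 arrays lay above the Hep3B arrays. The CALR call was lost without Hep3B DMSO replicate 2 (limma, adjusted p = 0.0597) and without Huh7.5.1 DMSO replicate 1 (0.0527).

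XBP1 had 12.37 and 12.50 in Huh7.5.1 and 11.47 and 11.76 in Hep3B, a difference of 0.82 ± 0.11 (SE) as deposited and 0.61 after centring (limma, adjusted p = 0.000254 as deposited). EDEM2 had 8.21 and 7.96 in Huh7.5.1 and 7.27 and 7.38 in Hep3B, and SEC61B had 12.69 and 12.60 in Huh7.5.1 and 12.29 and 12.08 in Hep3B. The groups did not overlap for any of these 3 genes. With the mean of its 2 probe sets, of which 1 reached the floor, EDEM2 differed by 0.20 and did not pass (limma, adjusted p = 0.266).

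Of the genes lower in Huh7.5.1, PDIA4, an isomerase with several thioredoxin domains, had 11.07 and 11.36 in Huh7.5.1 and 12.47 and 12.64 in Hep3B. Its difference was -1.34 ± 0.14 (SE) as deposited and -1.54 after centring (limma, adjusted p = 4e-05 as deposited), and its 3 probe sets were all lower. DNAJB11 had 10.40 and 10.69 in Huh7.5.1 and 11.47 and 11.59 in Hep3B, a difference of -0.99 ± 0.13 (SE) as deposited and -1.19 after centring. No Huh7.5.1 array of these genes reached a Hep3B array.

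SYVN1 had 8.44 and 8.34 in Huh7.5.1 and 9.38 and 9.28 in Hep3B, a difference of -0.94 ± 0.14 (SE) as deposited and -1.14 after centring (limma, adjusted p = 0.000321 as deposited). EIF2AK3 had 8.02 and 8.28 in Huh7.5.1 and 8.97 and 8.98 in Hep3B, a difference of -0.83 ± 0.15 (SE) as deposited and -1.03 after centring (limma, adjusted p = 0.00107 as deposited). The ligase and the sensor were thus lower in both Huh7.5.1 arrays. When each probe set was tested on its own, the other 2 probe sets of EIF2AK3 had differences of -0.18 and -0.44 and did not pass. The call was also lost without the probe sets ending in _x_at or _s_at (limma, adjusted p = 0.371).

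CRELD2 and SDF2L1 differed by -0.66 ± 0.15 (SE) each as deposited, and by -0.87 and -0.86 after centring. CRELD2 had 9.58 and 9.23 in Huh7.5.1 and 10.04 and 10.09 in Hep3B, and SDF2L1 had 9.62 and 9.43 in Huh7.5.1 and 10.17 and 10.19 in Hep3B. The lines did not overlap in either gene. With the mean of its probe sets, one of which lay below the floor, CRELD2 differed by -0.017 and did not pass (limma, adjusted p = 0.925).

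EDEM3 had 10.12 and 10.15 in Huh7.5.1 and 11.05 and 10.52 in Hep3B. DERL1 had 9.08 and 9.12 in Huh7.5.1 and 9.48 and 9.48 in Hep3B, and its 3 probe sets were all lower. EDEM3 differed by -0.65 and DERL1 by -0.38 as deposited, without overlap. The DERL1 call was lost without either Huh7.5.1 DMSO array and without either Hep3B DMSO array (limma, adjusted p between 0.0858 and 0.114). EDEM3 did not pass without Hep3B DMSO replicate 2, at -0.38 (limma, adjusted p = 0.0663), or with the mean of its probe sets, at -0.51 (0.0634).

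UGGT1 had 7.41 and 7.19 in Huh7.5.1 and 7.99 and 7.89 in Hep3B. P4HB had 12.47 and 12.71 in Huh7.5.1 and 12.91 and 13.00 in Hep3B. Both were lower on the probe set used, by differences of -0.64 and -0.37 as deposited, but both had other probe sets that passed as higher in Huh7.5.1. The probe sets of P4HB ran between -0.37 and 2.45, with 4 called higher and 2 lower, and the ACTB values above moved with the same contrast. UGGT1 missed the threshold without Huh7.5.1 DMSO replicate 2 (limma, adjusted p = 0.0506). P4HB missed it without Hep3B DMSO replicate 3 (0.0540) and without Huh7.5.1 DMSO replicate 1 (0.0595). The other 12 of the 17 genes passed in every fit that left out 1 array.

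Another 7 genes passed as higher in Huh7.5.1 on the deposited scale but not under all 3 scalings. They were HSP90B1, HSPA13, SIL1, CANX, DNAJC10, HERPUD1 and EDEM1, with deposited differences of 0.24 to 0.60, and after centring 0.03 to 0.39. On the probe set used, HSPA5 had 12.55 and 12.55 in Huh7.5.1 and 12.48 and 12.49 in Hep3B, a difference of 0.07 ± 0.07 (SE) as deposited and -0.13 after centring (limma, adjusted p = 0.426 as deposited). Its 6 probe sets ran between -0.19 and 0.43, and the highest of these differences passed when each probe set was tested on its own (limma, adjusted p = 0.0139). ATF6 differed by -0.19, PDIA6 by -0.26, SEL1L by -0.30 and HYOU1 by -0.39 as deposited. DNAJC3 differed by -0.24 and DERL3 by -0.34. On the probe set used, these 6 did not pass as deposited and passed as lower after centring and after quantile normalization. When each probe set was tested on its own as deposited, HYOU1 had 3 called higher and 0 lower, and DNAJC3 had 2 and 0. DERL3 and PDIA6 had 1 and 0 each, while ATF6 and SEL1L had 0 in either direction. The direction of HYOU1, DNAJC3, DERL3 and PDIA6 thus rests on the probe set as well as the scaling. On the probe set used, OS9, SEC61A1, PDIA3, MANF, PDIA5 and DERL2 passed under none of the 3 scalings. Tested singly as deposited, 5 of 6 probe sets of OS9 and 2 of 3 of SEC61A1 were called higher. For PDIA3, 1 of 2 was called lower. EDEM1 had 2 called higher and 1 lower, so its direction rests on the probe set too.

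Set side by side, the 2 comparisons gave EIF2AK3 1.02 for CU27 and -0.83 for Huh7.5.1 against Hep3B, and SYVN1 0.57 and -0.94. They gave SDF2L1 0.55 and -0.66, and CRELD2 0.55 and -0.66. XBP1 had -0.62 for CU27 and 0.82 between lines, and SEC63 -0.50 and 1.60. DNAJB9 was positive in both, at 0.99 and 1.10. The shared Huh7.5.1 DMSO arrays enter these pairs with opposite signs, so no relation between them was read.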

How the data were processed

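The deposited table held 1 value per probe set and array for 49395 probe sets. The values were taken as deposited by the authors and read as log2 signals from their range, since the sources used here do not state the scale. The submitters' processing notes name MAS5 without a version. The scaling between arrays was not given in the sources used here. Column medians were 6.26 and 6.25 for the CU27 arrays, 6.27 and 6.23 for their DMSO controls and 5.85 and 5.82 for Hep3B, and any centring between lines is unknown.

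Both Hep3B CU27 columns were linear functions of the Hep3B DMSO columns (tolerance 1e-06) and entered only one alternative. The 102 array controls were left out. Probe sets were named through the platform annotation, which gave 44988 of them 1 symbol, 1832 several and 2473 none; 44961 matched RefSeq genes by Entrez identifier. Each gene took the probe set of highest mean signal and was tested when 1 group mean reached the floor, the 50th percentile of all values (log2 6.11), which left 11383 genes.

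The group comparisons used limma 3.58.1 under R 4.3.3 (lmFit and eBayes with trend, two-sided) over the 6 arrays, with 3 residual and 5.87 prior degrees of freedom. Benjamini-Hochberg adjustment ran over all genes tested, and the threshold was 0.05. Exact permutation tests were not used, since 0.333 is the smallest p that 2 arrays against 2 allow. The labels call the replicates biological without saying how cultures were separated. The p-values set a difference against the spread within the 3 groups of these arrays, moderated across genes. The procedure was tested on simulated data. Array data carry no read depth, and the number of arrays limits the precision.

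All listed genes are named. Values of every array are given for those past the test and for others at the ends of their role. The listed genes, their roles and the other ER lists were chosen with earlier results of these data known. The Huh7.5.1 replicate numbers were checked for pairing: deviations of same-numbered arrays had a correlation of 0.18 over 2 pairs, too few to pair them. The alternatives concerned the probe set, scaling, floor, trend, arrays in the fit, replicates left out and a replicate block. Promoter motifs were exact matches in RefSeq windows of GRCh38.p14.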

Additional observations from a re-analysis of the deposited data

How the results depend on the processing

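For CU27, 2809 genes passed over the whole array, 5566 when every probe set was tested on its own, and 887 to 2972 with 1 array left out. The number of listed genes that rose was 7, with 2 to 7 when 1 array was left out, and the number that fell was 4, with 0 to 4. It was 2 when the mean of all probe sets stood for a gene and 2 when probe sets with names ending in _x_at or _s_at were left out. EIF2AK3 passed in 17 of 17 alternatives, DNAJB9 in 16 of 16, XBP1 in 16 of 17, SEC63 in 15, SYVN1 and DNAJC10 in 13, HSPA13 in 12, SDF2L1 and CRELD2 in 11, HSPA5 in 10 and DNAJC3 in 9. DNAJB9 was missing from the fit without probe sets ending in _x_at or _s_at, since all 3 of its probe sets end so. OS9 passed in 8 alternatives. These counts include the fit of all 8 columns, in which the Hep3B CU27 columns are not independent of the Hep3B DMSO columns. OS9 passed in that fit too. Between lines, 7283 genes passed, 16414 when every probe set was tested on its own and 4848 with the 75th percentile as the floor. The listed genes higher and lower in Huh7.5.1, 14 and 10 as deposited, became 8 and 16 after centring and 7 and 16 after quantile normalization. Signs turned with the mean of all probe sets for HSPA13 (0.034) and ERO1B (0.76) under CU27, and between lines for HYOU1 (0.59), DNAJC3 (0.59), UGGT1 (0.016), P4HB (0.94) and SEC61A1 (0.75). Leaving out the probe sets ending in _x_at or _s_at turned P4HB (1.46) and SEC61A1 (1.07) between lines. The cause was not tested. With the replicate number as a block in Huh7.5.1, 3182 genes passed, and 8 listed genes rose and 4 fell, while the numbers share no stated source. No paired analysis was possible for the lines because their groups share only replicate number 2. With 2 arrays per group, a difference that misses the threshold, such as that of OS9, is not shown to be absent.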

Other observations

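Other genes of the ER were described through lists of their roles, and 80 of them were tested. With CU27, 14 rose and 6 fell in limma, with a median difference of 0.06, against 12.6% higher and 12.1% lower over all genes. Among the other oxidoreductases and prolyl isomerases 2 of 17 rose and 3 fell. ERO1A, the paralogue of ERO1B and a known target of hypoxia and ER stress, had 10.12 and 10.01 in CU27 and 8.65 and 8.31 in DMSO. It rose by 1.59 ± 0.15 (SE), or 3.01-fold, more than any of the 37 tested genes above (limma, adjusted p = 0.000614). QSOX1, a sulfhydryl oxidase of the secretory pathway, rose by 0.81, and the membrane thioredoxin TMX4 fell by 1.28.

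In the translocation list 2 of 15 rose, the signal sequence receptor subunits SSR2 (0.69) and SSR3 (0.81). In N-glycosylation 1 of 14 rose, the oligosaccharyltransferase subunit DAD1 (0.53), and 1 fell, UGGT2, by 0.81. Among the other ERAD genes 5 of 21 rose and 1 fell. SELENOS, a selenoprotein of the retrotranslocation complex, had 11.32 and 11.32 in CU27 and 10.70 and 10.72 in DMSO, and rose by 0.61 ± 0.10 (SE, limma adjusted p = 0.00381). TMUB1 (0.59) and the ubiquitin conjugating enzyme UBE2J1 (0.58) rose too. Among the other UPR genes 4 of 13 rose and 1 fell. SEC24D, a cargo adaptor of COPII vesicles, had 7.31 and 7.52 in CU27 and 6.04 and 6.36 in DMSO, and rose by 1.22 ± 0.17 (SE, limma adjusted p = 0.00215). CREB3L3, a liver transcription factor of the ER membrane, rose by 0.77 and WFS1, the ER protein wolframin, by 0.85.

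Between lines in DMSO, 16 of the 80 genes (20%) were higher in Huh7.5.1 and 20 (25%) lower under all 3 scalings, against 27.0% higher and 22.9% lower over all genes. FKBP11, a prolyl isomerase of secretory cells, had 10.83 and 10.80 in Huh7.5.1 and 5.29 and 5.03 in Hep3B, below the floor. On the deposited scale it was at least 26.1-fold higher in Huh7.5.1 (limma, adjusted p = 3.87e-08). Its difference was 5.66 as deposited and 5.45 after centring. SEC24D differed by -2.40, FAM8A1, a cofactor of SYVN1, by -2.07, and STT3B, a catalytic subunit of oligosaccharyltransferase, by 2.33. For SEC24D the values stood at 1.22 for CU27 and -2.40 between lines, and both rest on the same Huh7.5.1 DMSO arrays.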
